A study of Mus musculus with 6 samples.

Results

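The Dlk1-Dio3 domain is an imprinted stretch of mouse chromosome 12, and 7 of its genes were examined here: Dlk1, Meg3, Rtl1, Rian, Mirg, Dio3 and Dio3os. They were chosen by name, with the difference between knockout and wild type lungs at these genes already known, so that difference is given below as a description and without a test. Of the 41174 probes on the array that are not controls, 9 carried a name that maps to 5 of the 7 genes. Meg3 had 5 probes, and Dlk1, Rian, Dio3 and Dio3os had 1 each. No probe name mapped to Rtl1 or Mirg, and both are not analysed here. For comparison, 26690 probes mapped to a current symbol, for 18217 genes.

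The arrays held RNA of whole lungs from 6 mouse embryos at E18.5, shortly before birth, with 1 embryo per array and 3 embryos per group. The genotype was 15-1+/+, 15-2+/+ in the wild type group and 15-1Flox/Flox, 15-2-/- in the knockout group, where 15-1 is ECAT15-1 (Dppa4) and 15-2 is ECAT15-2 (Dppa2). Every knockout embryo therefore carried the floxed ECAT15-1 allele on both chromosomes together with the null ECAT15-2 allele, and the wild type embryos carried neither. The parents were doubly heterozygous. The line was a mixture of strains, founded from 129Sv embryonic stem cells, mated to C57/BL6 and crossed once to a Cre or FLPe line of undescribed background. Dppa2 and Dppa4 encode a pair of related chromatin proteins known from pluripotent cells and the germ line. Sex and litter of the embryos are not in the labels used here.

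In imprinted genes the allele of 1 parent is expressed and that of the other is silent, as set by DNA methylation laid down in the germ line. In the Dlk1-Dio3 domain the paternal chromosome expresses the protein-coding genes Dlk1, Rtl1 and, with weaker parental bias, Dio3. The maternal chromosome expresses the long noncoding RNAs Meg3 (also called Gtl2), Rian and Mirg, which are hosts of many small RNAs. A methylated control region upstream of Meg3 on the paternal chromosome decides which side is active. A 1-colour array reads the sum of both alleles, so parental origin serves here only to order the genes.

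Between Dlk1 and Dio3 the reference gene table (RefSeq, GRCm38.p6, used for order only) lists 103 genes, of which 5 had a probe. They lie in the order Dlk1, Meg3, Rian, Dio3os and Dio3. The reference also places 58 microRNA hairpins in this interval, 3 of them inside Rian and 10 inside Mirg. Dio3os runs opposite to Dio3, and their annotated starts lie 1162 bases apart, pointing away from each other.

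The 250 bases before the annotated start are shown for Dio3 and Dio3os, the pair that was higher in the knockout lungs, and for Dlk1 and Meg3, a paternally and a maternally expressed gene whose groups overlapped. The sequences are from RefSeq on GRCm38.p6, written 5′ to 3′ on the strand of the gene, at chr12:110278980-110279229 (plus strand) for Dio3, chr12:110278069-110278318 (minus strand) for Dio3os, chr12:109452573-109452822 (plus strand) for Dlk1 and chr12:109540746-109540995 (plus strand) for Meg3. Meg3 has a second annotated start, which is not shown. Capitals mark the 5 motifs that were searched on both strands: TATAAA (the core of a TATA box), CCAAT (the CCAAT box), GGGCGG (a GC box), TGACGTCA (the cAMP response element) and TGCCGC (the hexamer that the imprint-keeping factor ZFP57 reads when methylated).
Dio3: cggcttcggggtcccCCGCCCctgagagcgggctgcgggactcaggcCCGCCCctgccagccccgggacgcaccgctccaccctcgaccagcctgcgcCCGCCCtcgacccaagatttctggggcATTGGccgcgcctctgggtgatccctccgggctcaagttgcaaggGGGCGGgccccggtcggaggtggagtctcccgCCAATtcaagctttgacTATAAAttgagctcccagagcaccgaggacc
Dio3os: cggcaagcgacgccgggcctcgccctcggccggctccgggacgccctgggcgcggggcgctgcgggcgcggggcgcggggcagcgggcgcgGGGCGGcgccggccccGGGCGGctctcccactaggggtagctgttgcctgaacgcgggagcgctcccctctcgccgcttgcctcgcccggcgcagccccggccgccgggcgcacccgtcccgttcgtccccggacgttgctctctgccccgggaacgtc
Dlk1: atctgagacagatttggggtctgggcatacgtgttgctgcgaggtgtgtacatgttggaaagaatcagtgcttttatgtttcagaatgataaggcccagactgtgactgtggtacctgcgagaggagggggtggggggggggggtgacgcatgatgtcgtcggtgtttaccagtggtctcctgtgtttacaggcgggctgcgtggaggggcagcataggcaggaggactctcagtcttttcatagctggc
Meg3: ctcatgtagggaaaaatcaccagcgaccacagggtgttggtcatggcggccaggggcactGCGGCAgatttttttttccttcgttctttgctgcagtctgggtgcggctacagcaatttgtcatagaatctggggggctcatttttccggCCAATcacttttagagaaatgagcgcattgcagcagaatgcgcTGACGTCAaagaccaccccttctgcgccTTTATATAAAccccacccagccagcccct

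The Dio3 window held TATAAA 31 bases before the start, CCAAT at 48 and 125 bases before it, and 4 copies of GGGCGG. The Dio3os window held 2 copies of GGGCGG, at 143 and 159 bases before the start, and neither TATAAA nor CCAAT. Among 32851 windows of the same length, 12.4% held TATAAA, 33.8% held CCAAT and 32.7% held GGGCGG. The windows differed in base composition. The Dio3os window was 82% G and C with 44 CpG dinucleotides, more than 99.5% of all windows, and the Dio3 window was 69.6% G and C with 21 CpG, where the median window had 6. The Dlk1 window had 8 CpG and none of the 5 motifs. The Meg3 window had 10 CpG, a TATA core read on both strands at 25 and 29 bases before the start (the matches share bases), CCAAT at 100, TGACGTCA at 57 (found in 1.55% of windows) and TGCCGC at 190 (8.68% of windows). These matches describe letters in a reference sequence, and binding at them was not measured in these lungs.

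Array signals were scaled by setting log2 intensity relative to the 75th percentile of the array. A level of 0 is that percentile, and each unit is a doubling. Between 63.3% and 68.8% of the probes on an array lay well above background, by the flag of the scanner software. All 9 probes of the domain did so on all 6 arrays, and none was saturated. The arrays lay on 3 slides: wild types 1 and 2 and knockout 3 on slide 1, wild type 3 on slide 2, and knockouts 1 and 2 on slide 3. Wild types 1 and 2 had signal from Y-linked genes, and wild type 3 and the 3 knockouts had Xist instead, so both Y-bearing lungs were wild type. The raw file names in the labels begin with a number that wild type 3 shared with knockout 3, that wild types 1 and 2 shared, and that knockouts 1 and 2 shared. What that number stands for is not stated. The targeted gene Dppa2 read -3.16, -3.45 and -3.49 in the wild types and -4.88, -4.92 and -4.00 in the knockouts, above background on all 6 arrays, with knockout 3 nearest to the wild types. Whether its probe lies in the deleted part is not given. Dppa4 was not well above background on any array.

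The lungs were also checked against markers. All 11 lung epithelium markers with a probe lay above background on every array. Heart muscle markers differed between the groups: 7 of the 11 tested were called lower in the knockouts (0.619% of all features were), and their summed level (in multiples of the array's 75th percentile) was 62.7 to 74.1 in the wild types and 36.8 to 50.6 in the knockouts. The summed cartilage markers were 1.90 to 2.19 in the wild types and 2.31 to 2.72 in the knockouts, with 1 of 7 called lower, a positive median difference of 0.76 on the log2 scale and Matn1 not above background on any array. Proliferation markers had a positive median difference of 0.83 on the log2 scale, with none of 6 called and summed levels of 11.3 to 25.2 in the wild types and 24.3 to 31.0 in the knockouts. Their summed level did not overlap between slide 1 (11.3 to 24.3) and the other arrays (25.2 to 31.0).

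Both genes at the far end of the domain, Dio3 and Dio3os, read higher in all 3 knockout lungs than in any wild type lung, by 2.73-fold and 2.39-fold. Of all features, 16.5% likewise had groups without overlap and the knockouts higher. Both probes were dim, and with normexp background correction the log2 differences were smaller, at 0.62 and 0.65. The 3 other probed genes, Dlk1, Meg3 and Rian, had overlapping groups, with small differences whose intervals include 0. The 2 paternally expressed genes thus had differences of opposite sign. The median difference was 0.56 for Dlk1 and Dio3 and -0.11 for Meg3 and Rian, against 0.001 over all 19867 features tested.

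Dio3 encodes the type 3 iodothyronine deiodinase, a selenoenzyme that inactivates thyroid hormone and is abundant in fetal tissues and placenta. Its probe gave intensities of 43.8, 29.2 and 40.2 in wild types 1 to 3 and 117.6, 104.5 and 93.4 in knockouts 1 to 3. On the scaled log2 axis these were levels of -5.17, -5.63 and -5.25 in the wild types and -3.72, -3.90 and -4.09 in the knockouts. Every knockout lay above every wild type, and the groups were separated by more than the spread within either. The group means were -5.35 ± 0.24 (SD, n = 3) and -3.90 ± 0.19 (SD, n = 3). The difference was 1.45 with a standard error of 0.16 and a 95% confidence interval from 1.06 to 1.83, or 2.09-fold to 3.56-fold.

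Dio3os is a noncoding RNA transcribed from the opposite strand at Dio3. Its probe gave intensities of 34.4, 39.4 and 39.1 in the wild types and 89.3, 84.1 and 105.6 in the knockouts. The scaled levels were -5.52, -5.20 and -5.29 against -4.12, -4.21 and -3.92. As at Dio3, no knockout overlapped a wild type, but the order within the knockouts was not the same: knockout 3 was the lowest of the 3 for Dio3 and the highest for Dio3os. The means were -5.34 ± 0.17 and -4.08 ± 0.15 (SD, n = 3 each), a difference of 1.26 with a standard error of 0.13 and a 95% interval from 0.94 to 1.57. The probes are named by separate accessions, NM_172119 for Dio3 and NR_002866 for Dio3os. The probe sequences and the strand they read were not used here.

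Dio3 and Dio3os were among the features called higher in the knockouts at a Benjamini-Hochberg adjusted p under 0.05 in limma's test over all 19867 features. Calls in that direction made up 0.725% of the features (144), and calls in either direction 1.34% (267). Because this contrast had been seen when the genes were chosen, nothing is read from the calls. By size of difference from the highest, Dio3 ranked 84 and Dio3os 144. Groups without overlap and with the knockouts higher were common, at 16.5% of all features. A difference of at least 1 in that direction was found in 1.74%.

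Both probes were dim. The Dio3 probe ranked between the 36.6th and 47.4th percentile of signals on its arrays, and the Dio3os probe between the 37.5th and 46.7th. The lowest signals called well above background ran from 14.0 to 29.3 across arrays. Signal was 5.44 to 9.44 times the scanner software's own error for Dio3 and 6.53 to 9.23 times for Dio3os. Probes spotted repeatedly, with signals between 20 and 200, had a median SD of 0.13 on the log2 scale between spots of an array (55 probes), against 0.06 at signals above 2000 (90 probes). The SDs between lungs of 1 group were 0.24 and 0.19 for Dio3 and 0.17 and 0.15 for Dio3os, a spread that also holds differences between embryos, arrays and slides.

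Both differences were smaller with normexp background correction and an added offset of 50, at 0.62 for Dio3 and 0.65 for Dio3os. An added offset by itself shrinks log2 differences between dim signals, and its part was not separated from that of the correction. Over the other scalings and the authors' deposited table the difference lay between 1.30 and 1.49 for Dio3 and between 1.11 and 1.30 for Dio3os. In the authors' deposited table, whose log2 values are relative to the wild type median of each probe, Dio3 read 0.07, -0.44 and 0 in the wild types and 1.30, 1.21 and 1.01 in the knockouts. For Dio3os the authors' deposited table gave -0.25, 0.03 and 0 against 0.94, 0.94 and 1.23.

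The slide and the Y-linked signal could be compared within the arrays only by single lungs. On slide 1, knockout 3 exceeded the mean of wild types 1 and 2 by 1.31 for Dio3 and by 1.44 for Dio3os. Against wild type 3, which had Xist as the knockouts did, the mean of the 3 knockouts was higher by 1.35 for Dio3 and by 1.21 for Dio3os. Wild type 3 differed from the mean of wild types 1 and 2 by 0.15 and 0.07. Each of these comparisons rests on a single lung on 1 side, and neither gene was called with the slide as a block or with a term for Y-linked signal. The summed heart muscle and cartilage markers described above did not overlap between the groups either, with heart muscle lower and cartilage higher in the knockouts. The proliferation markers also had a median difference between the groups. The part of these markers in the differences at Dio3 and Dio3os was not tested. In a whole lung, a change in the share of cells that express a gene and a change in RNA per cell cannot be told apart.

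**Figure D1:**
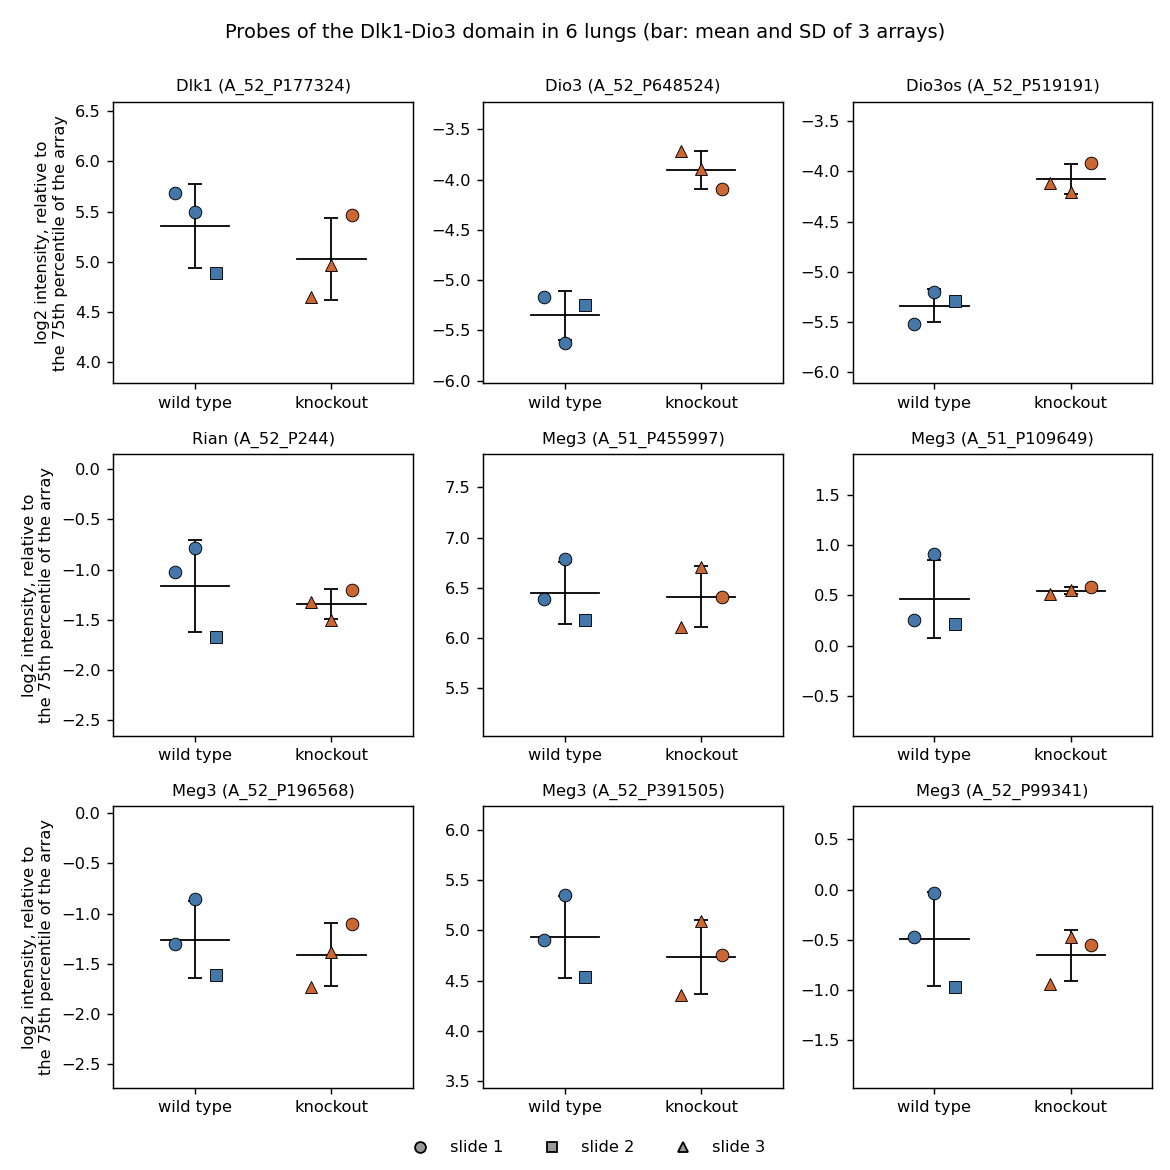
Level of each of the 9 probes in the 6 lungs, as log2 intensity relative to the 75th percentile of the array, with wild type at left and knockout at right in each panel, marker shape for the slide, and bars for the mean and SD of 3 arrays; every panel spans the same number of log2 units. At Dio3 and Dio3os the 3 knockouts lie above the 3 wild types, and at the other 7 probes the groups overlap.

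Dlk1 encodes a transmembrane and secreted protein with EGF repeats, related to Notch ligands, which holds preadipocytes and other progenitors in an immature state. Its levels were 5.68, 5.50 and 4.89 in wild types 1 to 3 and 4.65, 4.97 and 5.47 in knockouts 1 to 3. The groups overlapped: wild type 3 fell among the knockouts, and knockout 3 came close to wild types 1 and 2. The means were 5.36 ± 0.42 and 5.03 ± 0.41 (SD, n = 3 each). The difference was -0.33 with a 95% interval from -0.97 to 0.31, or 0.511-fold to 1.24-fold. The probe was bright, between the 98.4th and 99.4th percentile of signals on its arrays, and its levels spanned 1.03 across the 6 lungs.

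Meg3 is the maternally expressed noncoding RNA next to the control region. Its 5 probes followed 2 accessions, NR_027652 for 2 probes and NR_003633 for 3. The brightest, A_51_P455997, read 6.39, 6.79 and 6.18 in the wild types and 6.11, 6.71 and 6.41 in the knockouts. Wild type 2 and knockout 2 were the highest lungs of their groups and the groups overlapped almost fully. The means were 6.45 ± 0.31 and 6.41 ± 0.30 (SD, n = 3 each), a difference of -0.04 with a 95% interval from -0.53 to 0.46.

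The other Meg3 probes gave the same picture. Their differences were 0.09 for A_51_P109649, -0.15 for A_52_P196568, -0.16 for A_52_P99341 and -0.20 for A_52_P391505, each with an interval that includes 0. Across the 6 lungs the probes moved together, with Pearson correlations of 0.61 to 0.97 over the 10 pairs of probes, which share their arrays and their gene. Set against each probe's own mean, wild type 2 was high at all 5 probes, by 0.35 to 0.54. Wild type 3 was low at all 5, between -0.39 and -0.26. Knockout 1 averaged -0.31, with 1 probe, A_51_P109649, near 0. At the brightest probe the SD within a group was thus several times the difference between the groups.

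Rian is a maternally expressed noncoding RNA that hosts small nucleolar RNAs and microRNAs downstream of Meg3. Its levels were -1.03, -0.79 and -1.68 in the wild types and -1.32, -1.50 and -1.20 in the knockouts. The wild types covered the wider span, with wild types 1 and 2 above and wild type 3 below all 3 knockouts. The means were -1.16 ± 0.46 and -1.34 ± 0.15 (SD, n = 3 each), a difference of -0.18 with a 95% interval from -0.72 to 0.36.

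Dlk1 and Rian separated by slide rather than by genotype. For Dlk1 the 3 arrays on slide 1 read 5.47 to 5.68 and the other 3 read 4.65 to 4.97. For Rian slide 1 read -1.20 to -0.79 and the others -1.68 to -1.32. The Meg3 probe A_52_P196568 did not overlap between slide 1 and the other arrays either. Slide 1 averaged higher by 0.71 for Dlk1, by 0.49 for Rian and by 0.49 for that Meg3 probe. Of all features, 13.1% did not overlap between slide 1 and the other arrays, 6.45% with slide 1 higher, so such a pattern was not rare. Summed proliferation markers were divided by slide in the opposite direction, and their part in the values of Dlk1 and Rian was not tested.

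The choice of lungs compared therefore decided the sign of the difference at these 3 genes. On slide 1, knockout 3 differed from the mean of wild types 1 and 2 by -0.12 for Dlk1, -0.17 for Meg3 and -0.30 for Rian. Against wild type 3, with which it shared the number in the file name, the same knockout was higher by 0.58, 0.24 and 0.47. Among the lungs with Xist, the knockout mean was above wild type 3 by 0.14, 0.24 and 0.33. Wild type 3 itself was below wild types 1 and 2, with differences of -0.70 for Dlk1, -0.41 for Meg3 and -0.77 for Rian. Dio3 and Dio3os had a positive difference above 1 in each of these 3 comparisons of knockout with wild type lungs.

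**Figure D2:**
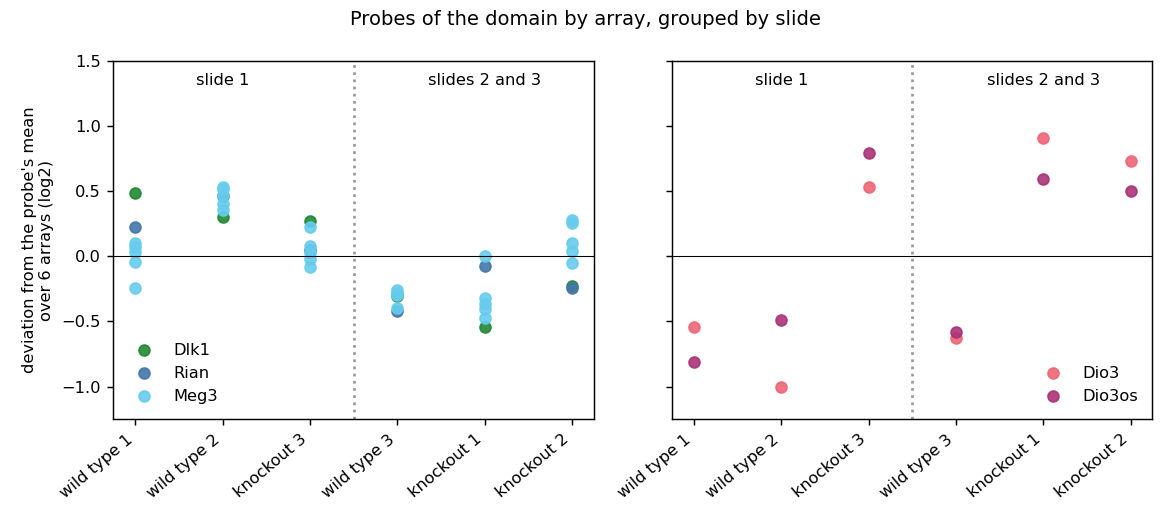
Deviation of each probe from its own mean over the 6 arrays (log2), by array, with the 3 arrays of slide 1 left of the dotted line, for Dlk1, Rian and the 5 Meg3 probes in the left panel and for Dio3 and Dio3os in the right panel. Dlk1 and Rian are higher on slide 1 than on the other arrays, whereas Dio3 and Dio3os are above 0 in the 3 knockouts and below 0 in the 3 wild types. Only slide 1 holds lungs of both groups.

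Over the 6 lungs, Dio3 and Dio3os had a Pearson correlation of 0.91 and Dlk1 and Rian one of 0.74. The correlation was 0.49 between Meg3 and Rian, 0.48 between Dlk1 and Meg3, and -0.53 between Dlk1 and Dio3. These values are descriptions over 6 arrays that share slides and groups. Many features followed the members as closely: of 13927 features with a symbol, 434 had a correlation of at least 0.9 with Dio3, 202 with Dio3os, 227 with Dlk1, 120 with Rian and 74 with Meg3.

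The 5 features most like Dio3 were Trpv4 (0.998), Ankrd26, Spg11, Sumf2 and Heph (0.992), which were higher in the knockouts by 0.14 to 0.74. The 5 most like Dio3os were Selenov (0.992), Timmdc1, B130006D01Rik, Zfr2 and Tdrd3 (0.984), with differences of 0.23 to 1.94. Those most like Dlk1 were Ifi204 (0.997), Spo11, Ms4a4c, Msn and Tmod1 (0.987), all with slide 1 higher, by 0.27 to 1.22. Gatad2b, Nfkbil1, Sik1, Aamp and R3hdm2 were most like Meg3 (0.977 to 0.987), and Gse1, Xpo7, Trim27, Pcyt1a and Acaa1b most like Rian (0.979 to 0.990). None of these 25 is a gene of the domain.

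Genes on either side of the domain were examined with the same fit. None of the 15 tested neighbours passed the threshold, against 1.34% of all features. Without wild type 3, when 1919 features passed, 2 of them did, and 1 did with each array minus its median and 1 with normexp. 4 differences were positive and 11 negative, with a median of -0.09. The nearest tested genes on the Dlk1 side were Wdr25 (0.22), Wars (-0.67) and Slc25a47 (-0.18), and on the Dio3 side Ppp2r5c (-0.20), Dync1h1 (-0.02) and 1700001K19Rik (-0.03). A second probe of Dync1h1 gave 0.56, and further probes of Ppp2r5c gave -0.15 (above background on all 6 arrays) and 0.14 (above background on 5).

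The largest differences among the neighbours were at Slc25a29, a mitochondrial carrier of basic amino acids, and Wars, the tryptophanyl-tRNA synthetase. Wars read 2.87, 3.00 and 2.70 in the wild types and 2.12, 2.08 and 2.34 in the knockouts, without overlap, with an adjusted p of 0.0566 in limma's test. Of all features, 15% had groups without overlap and the knockouts lower. Its second probe gave -0.52. Slc25a29 read 1.55, 1.59 and 1.26 against 0.48, 0.88 and 0.93, a difference of -0.70 (adjusted p = 0.0714, limma) with -0.65 at its second probe. Mok followed with -0.36. The direction at these genes was opposite to that at Dio3 and Dio3os, and neither passed the threshold.

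Imprinted genes from other parts of the genome gave no call among 38 tested. Of these, 13 had an unadjusted p under 0.05 (25.8% of all features did), 26 (against 50% of all features) had a positive and 12 a negative difference, and the median was 0.15. With each array set relative to its median, a scaling that shifts the median of all features to -0.14, 20 of the 38 were positive and 26 lay above that median. The largest differences were at Magel2, Calcr and Zdbf2. Magel2, a paternally expressed regulator of protein trafficking from the Prader-Willi region, read -5.31, -5.68 and -5.02 in the wild types and -3.76, -4.60 and -4.17 in the knockouts (difference 1.16, adjusted p = 0.0653, limma). Calcr, the calcitonin receptor, differed by 1.12 with overlapping groups and had a second probe that was not well above background on any array. Zdbf2 differed by 0.85 without overlap, where 16.5% of all features had groups without overlap and the knockouts higher.

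Further imprinted genes named after their values were seen were Peg3, a zinc finger protein (0.57, adjusted p = 0.0671 in limma's test, 0.53 at a second probe), Mest (0.43) and Igf2, the fetal growth factor (0.35, and 0.41 at a second probe). Rasgrf1 had probes of opposite sign, -0.68 and 0.78. Without wild type 3, 7 of the 38 genes passed the threshold, in a comparison in which 1919 features passed it in place of 267. With normexp 1 of the 38 passed, when 333 features did, and without knockout 2 also 1, when 77 features did.

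Factors that keep imprints and methylate DNA were next. None of 17 tested was called, against 1.34% of all features. 4 had an unadjusted p under 0.05, against 25.8% of all features, 10 differences were positive and 7 negative, and the median was 0.06. The largest differences were at Zfp445, a zinc finger protein that protects imprints together with ZFP57 (0.58, adjusted p = 0.141), at Uhrf1, which recruits the maintenance methyltransferase (0.44, adjusted p = 0.354), and at the 5-methylcytosine oxidase Tet2 (0.38, adjusted p = 0.11), all by limma. Second probes gave 0.59 and 0.79 for Zfp445, 0.62 for Uhrf1 and 0.05 for Tet2.

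Dio3 acts on thyroid hormone, so genes that carry, convert or answer the hormone were listed. None of 22 tested was called (1.34% of all features were) and 3 had an unadjusted p under 0.05 (25.8% of all features did). 8 differences were positive and 14 negative, and the median was -0.08. The other deiodinases were within the spread of the lungs, with -0.18 for Dio1 and 0.26 for Dio2. Both were dim, as Dio3 was. Mean levels in wild types and knockouts were -4.51 and -4.69 for Dio1 and -5.41 and -5.15 for Dio2. Thyroid hormone receptors Thra and Thrb gave 0.08 (-0.16 at a second Thra probe) and -0.19. Thrsp, a hormone-responsive lipogenic gene, differed by -0.51 (adjusted p = 0.31) and the transporter Slc16a10 by -0.40 (adjusted p = 0.186), by limma, both with overlapping groups. The thyroid gland markers Pax8, Slc5a5 and Tshr were not above background on any array.

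Dlk1 is related to Notch ligands, and the Notch list also had no call among 19 tested genes (1.34% of all features were called), with 2 at an unadjusted p under 0.05 (25.8% of all features). 7 differences were positive and 12 negative, with a median of -0.03. The ligand Dll4 (0.44, adjusted p = 0.19), the receptor Notch2 (0.36, adjusted p = 0.214) and the target Hes1 (-0.33, adjusted p = 0.361) had the largest differences by limma, all with overlapping groups. Further Notch2 probes gave 0.37 (above background on all 6 arrays) and -0.31 (above background on 2 arrays).

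**Figure D3:**
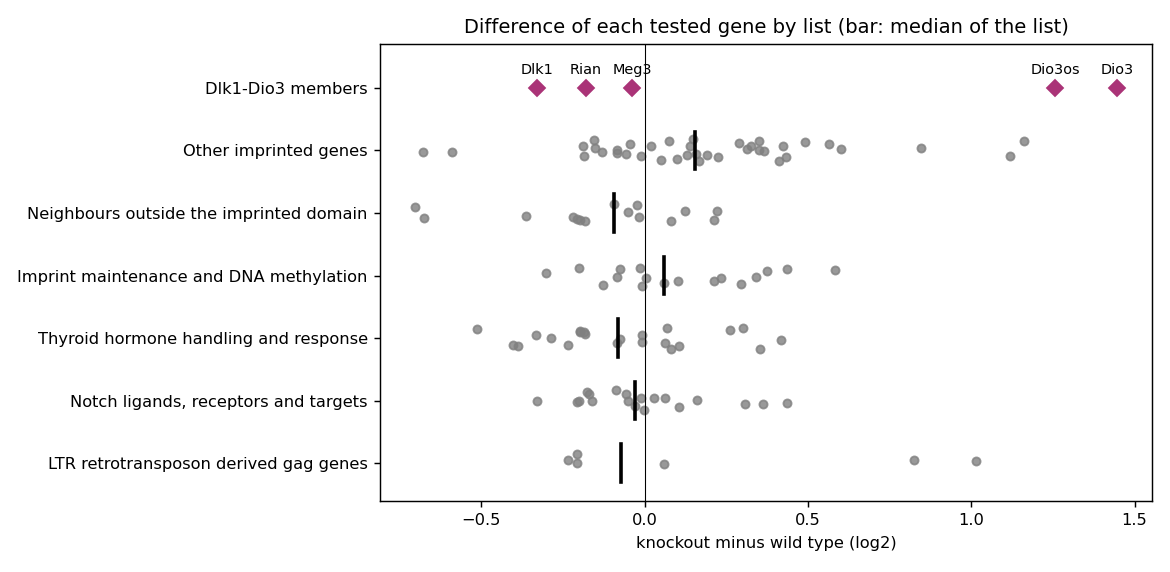
Difference between knockout and wild type lungs (log2) for each tested gene of the lists, 1 row per list, with grey points for genes, black bars for the median of a list and purple diamonds for the 5 genes of the Dlk1-Dio3 domain. Dio3 and Dio3os, at 1.45 and 1.26, lie to the right of every listed gene, and the medians of the lists lie between -0.09 and 0.15.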

How the data were processed

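The arrays were Agilent Whole Mouse Genome 1-colour arrays. Per the file headers, spots were quantified with Feature Extraction 10.7.3.1 on an mm9 design, and the intensity used here is the deposited background-subtracted signal, not scaled between arrays. A second deposited file by the authors holds log2 values, which by its numbers are relative to the wild type median of each probe. The design text names GeneSpring GX11, and the scaling method is not given in the sources used here.

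Here log2 intensity was set relative to the 75th percentile of each array. Spots of a probe were averaged without outlier-flagged spots. A probe was kept if either group had it well above background on every array (26668 probes), and the probe of highest mean stood for a gene (19867 features, 13940 with a symbol). The comparison of groups used limma 3.58.1, run in R 4.3.3 (two-sided, no covariate, threshold 0.05 after Benjamini-Hochberg adjustment), tested on simulated data. The 75th percentile of intensity was 1445 to 1595.1, and 3 arrays per group limit the precision. The labels do not say that embryos of a group came from separate litters.

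The genes and all lists were chosen with earlier results of these data known. Named genes were every member, genes past the threshold and the 3 largest differences of each list, the 3 nearest neighbours on either side, and the 5 most correlated features per member, with exceptions stated; some genes of the lists are not reported here by name. Alternatives covered scaling, background correction, filters, probe choice, blocks, Y-linked signal and leaving out each array. Promoter sequences and gene names came from RefSeq tables on GRCm38.p6.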

Additional observations from a re-analysis of the deposited data

How the results depend on the processing

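Of 21 alternatives, normexp on spot and background medians and no scaling were chosen after seeing the data. Dio3 stayed between 0.62 and 1.54 and Dio3os between 0.65 and 1.44, both positive throughout. They passed the threshold in 12 and 13 alternatives. Both lost the call with no filter on dim probes, with each of the slide, replicate and file number blocks, with a term for or without the arrays with Y-linked signal, and without wild type 1 or knockout 1, and Dio3 also without knockout 2. Dlk1 (-0.56 to 0.58), Meg3 (-0.19 to 0.24) and Rian (-0.44 to 0.47) were called in 0 alternatives and took either sign.

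The number of features called, 267 (144 higher, 123 lower), was 438 with no scaling, 92 with probes above background on at least 1 array, 28 with no filter on dim probes, 16 with the slide as a block (within slide 1 only), 23 with a term for Y-linked signal, and 0 with blocks by file number (1068 features at an unadjusted p under 0.05) or without the arrays with Y-linked signal (1373 at that p, where the lone wild type is assumed to vary like the knockouts). The higher and lower calls were 56 and 133 with quantile normalization, 60 and 137 in the authors' deposited table, 82 and 240 with each array minus its median, 144 and 189 with normexp, 298 and 140 with no scaling. Leaving out 1 array gave 35 to 1919 calls: 35 without wild type 1, 57 without wild type 2, 1919 without wild type 3, 60, 77 and 416 without knockouts 1, 2 and 3.

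The median of Dlk1 and Dio3 (0.56) was 0.16 with normexp, 0.87 with blocks by file number, 0.74 with a term for or without the arrays with Y-linked signal, and 0.47 to 0.69 without 1 array. The median of Meg3 and Rian (-0.11) was 0.36 with blocks by file number, 0.29 with that term or without those arrays, and -0.31 to 0.07 without 1 array. The causes were not tested.

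Replicate numbers did not pair the samples: the correlations of deviations were -0.02, 0.04 and 0.03, and the replicate block gave 48 calls. Signal near background limits Dio3 and Dio3os. The planned normexp on mean signals was not run, since the files used here give medians.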

Other observations

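Rtl1, for which no probe name mapped, descends from the gag and pol genes of a retrotransposon, and 6 relatives of such origin were tested. None passed the threshold (1.34% of all features did), 3 differences were positive and 3 negative, and the median was -0.07. The largest was at Rtl3, which read -3.99, -3.83 and -4.00 in the wild types and -3.21, -2.40 and -3.17 in the knockouts, a difference of 1.01 without overlap (adjusted p = 0.0666, limma). Pnma2 differed by 0.82 without overlap (adjusted p = 0.159, limma), with a second probe not well above background on any array. Such groups without overlap and with the knockouts higher made up 16.5% of all features. Rtl6 differed by -0.23 with overlapping groups.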
